A study of Mus musculus with 12 samples.

Results

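The 10 genes described here are core and output genes of the circadian clock: Arntl (Bmal1), Clock, Per1, Per2, Per3, Cry1, Cry2, Nr1d1 (Rev-erb alpha), Nr1d2 (Rev-erb beta) and Dbp. They were taken by gene symbol from a table of 34745 mouse genes, and all 10 were in the table, each in 1 row. Their RNA levels came from 12 sequencing libraries of MLE-12, a mouse lung epithelial line with alveolar type II (AT II) features that was derived from a tumour driven by the SV40 large T antigen under the surfactant protein C promoter. The 4 groups held 3 libraries each. LPS cells received 100 ng/mL LPS in 21% oxygen, and LPS + M2-Exo cells received in addition 10 µg/mL exosomes of M2 macrophages, which the study made from the alveolar macrophage line MH-S polarised with IL-4. Hyp cells were kept in 85% oxygen without LPS, and Hyp + M2-Exo cells received in addition the same dose of exosomes. The methods of the study place the addition of exosomes after the treatment with LPS or hyperoxia. The sample labels give 24 h for all 12 libraries. The hour of the day at harvest, the last change of medium and whether LPS and hyperoxia cultures were collected together are not given in the sources used here, and there was no untreated group. Nothing in the labels says that the 3 libraries of a group came from separate cultures, so the p-values measure the spread between these libraries, which may be technical.

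The circadian clock is a loop of transcription that runs in nearly every mammalian cell, cultured lines included. BMAL1 and CLOCK, the positive limb, bind E-box elements and drive the Per and Cry genes, whose proteins return to the nucleus and repress BMAL1 and CLOCK. A second loop sets the level of Arntl: REV-ERB proteins repress and ROR proteins activate it through the ROR element. DBP, TEF and HLF are output factors that activate genes with a D-box, among them Per genes. In the lung, clocks of epithelial cells shape the time of day at which the tissue responds to inflammatory stimuli. Many of these transcripts, such as Arntl, Per2, Nr1d1 and Dbp, rise and fall over the day with different phases where the cells run in step, so the level at a single harvest can depend on the hour of the clock as well as on treatment.

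The elements through which this loop works were looked for in RefSeq promoter windows (GRCm38.p6), each with 250 bases before and 50 bases after a start site, of which 13 matched 9 of the 10 genes by symbol. No window was given for Per2. The searched letters, on both strands, were CACGTG (E-box), CACGTT (E-box variant), TTATGTAA (D-box), AGTAGGTNA (ROR element) and TGACGTCA (CRE, the cAMP response element). The 3 stretches below come from clock genes with an E-box or D-box in a promoter window. Each found motif is in capitals, and positions are counted from the start site of that window.
Per3, chr4:151044786-151044885, minus strand, bases -220 to -121: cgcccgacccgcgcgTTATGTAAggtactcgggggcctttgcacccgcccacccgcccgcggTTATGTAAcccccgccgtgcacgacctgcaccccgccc
Cry1, chr10:85185075-85185174, minus strand, bases -120 to -21: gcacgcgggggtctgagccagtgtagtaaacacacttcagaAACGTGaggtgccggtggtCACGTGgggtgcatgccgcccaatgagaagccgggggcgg
Per1, chr11:69098739-69098838, plus strand, bases -210 to -111: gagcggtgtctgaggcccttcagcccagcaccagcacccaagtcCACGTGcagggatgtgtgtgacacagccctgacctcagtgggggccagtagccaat
The D-box occurred at 2 places in the Per3 stretch, with first bases at -205 and -158, and in 0.938% of all 32851 windows. The E-box of Cry1 began at -60 and that of Per1 at -166, and 7.15% of all windows held these letters. Per1 had 2 windows, and the E-box was found only in the window chr11:69098699-69098998. This window lies inside the gene, which begins at 69095217 in the deposited table. In Cry1 the E-box variant, read on the opposite strand as AACGTG, lay upstream of the E-box at -79. The variant was also found in Cry2 at -166 and in Nr1d1 at -28, against 4.68% of all windows. Arntl held 2 ROR elements at its start site, shown in capitals within 30 bases each that are exonic in GENCODE M21, against 0.591% of all windows. The 3 stretches above hold 0 exonic bases.
Arntl, chr7:113207493-113207522, plus strand: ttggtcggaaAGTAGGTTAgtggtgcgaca
Arntl, chr7:113207529-113207558, plus strand: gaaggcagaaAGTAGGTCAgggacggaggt
The windows of Clock, Nr1d2 and Dbp held none of the 5 motifs, and the CRE, in 1.79% of all windows, was in none of the 13. No 2 matches overlapped. The motifs were chosen after the windows had been seen, and a match is a run of letters, not a measured binding site.

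Total counts per library ranged from 16021833 to 19185116 in the LPS groups and from 20231632 to 24074616 in the hyperoxia groups. Levels of a gene are compared between libraries in CPM, counts scaled to a common library size after TMM normalization over all 12 libraries, and levels of different genes are compared in FPKM, which is per length of the gene. The AT II label was checked against 10 markers: the sum of their CPM was 429 to 445 in the libraries with LPS and 241 to 264 in those with hyperoxia. Nkx2-1, the lung lineage factor, had a mean of 172 CPM in LPS and 39.4 in Hyp, Sftpc had 22.3 and 11.3, Etv5 had 36.1 and 51.2, Sftpb had 1.498 and 4.63, and Sftpa1 and Sftpd had at most 1 count in any library. Of the 6 epithelial markers, Krt19 had a mean of 500.0 CPM in LPS and 740 in Hyp, Krt8 had 157 and 142, and Cdh1 had 16.3 and 3.42. Epcam did not exceed 1.17 CPM in any library, and Krt18 and Cldn4 had at most 4 counts in any library. Markers of macrophages (12 symbols in 13 rows) summed to 462 to 513 CPM in LPS, 369 to 419 in LPS + M2-Exo, 119 to 125 in Hyp and 92.5 to 139 in Hyp + M2-Exo. Adgre1, Csf1r and Ptprc were among those detected, whereas Arg1 had at most 3 counts in any library. Fibroblast markers summed to 770 to 837 CPM with LPS and 329 to 359 with hyperoxia. Most of this sum was Dcn (790 CPM in LPS and 333 in Hyp). Pdgfra had 22.2 and 1.01 CPM, and Col1a2 had 0.613 and 0.599. Alveolar type I markers summed to 294 to 335 CPM with LPS and 151 to 241 with hyperoxia. Pdpn, Ager and Hopx were lower in Hyp than in LPS, whereas Aqp5 was not (76.6 CPM in LPS and 85.4 in Hyp). Cav1 ran from 17.2 to 67.5 CPM within Hyp. Endothelial markers summed to 22.6 to 26.9 CPM with LPS and 5.73 to 8.05 with hyperoxia. That fall was carried by Tek (23.3 CPM in LPS and 3.67 in Hyp), whereas Pecam1 had 0.306 and 2.06 and Kdr 0.144 and 0.923. These sums moved with the injury, and their part in the results below was not tested. In bulk RNA, fewer cells of a type and less RNA per cell cannot be told apart.

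The levels of the clock genes per library separated the hyperoxia cultures from the LPS cultures for most of the 10 genes. In Hyp against LPS, Nr1d1 was 3.88-fold, Arntl 2.96-fold, Clock 1.84-fold and Cry1 1.77-fold higher, whereas Per3 was lower by a log2 fold change of -1.89, Dbp 3.62-fold, Per2 3.09-fold and Cry2 2.08-fold lower. The same 8 genes differed in the same direction between Hyp + M2-Exo and LPS + M2-Exo, a comparison that shares no library with the first. Per1 and Nr1d2 differed least, by at most 0.23 on the log2 scale in either comparison. No clock gene passed the adjusted test for M2-Exo in either injury.

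**Figure D1:**
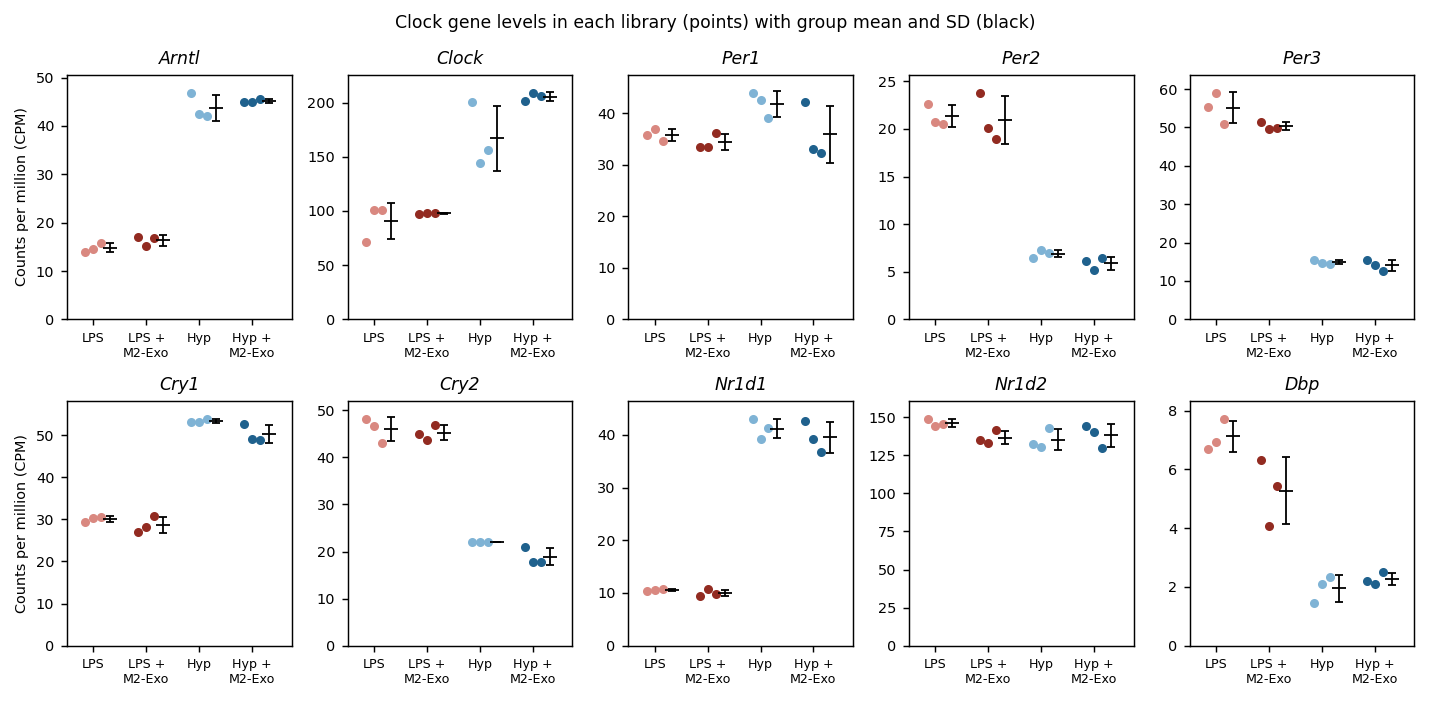
Level of each clock gene in every library, in CPM on a linear axis from 0, with 3 points per group in the order of replicate number and the group mean with its SD in black. Arntl, Clock, Cry1 and Nr1d1 sat higher in both hyperoxia groups than in both LPS groups, Per2, Per3, Cry2 and Dbp sat lower, and Per1 and Nr1d2 differed little.

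All 10 genes passed edgeR's quasi-likelihood test in Hyp against LPS (Benjamini-Hochberg adjusted p under 0.05), 5 higher and 5 lower. This count stood against a background in which 75.8% of the 13805 genes tested were called, 38% as higher and 37.8% as lower, so that passing the test does not set the clock genes apart. Their sizes give more detail. Among genes called, a log2 fold change of 1 or more in size was reached by 6 of the 10, 2 of them higher and 4 lower, against 24% of all genes (10.2% higher and 13.7% lower). The median absolute log2 fold change was 1.31 over the 10 genes and 0.51 over all genes tested. In Hyp + M2-Exo against LPS + M2-Exo, 8 of 10 passed, 4 in each direction, against a background of 73.7% (37.1% higher and 36.5% lower). There, 7 of 10 were called with a log2 fold change of 1 or more in size, 3 higher and 4 lower, against 24% of all genes (10.4% higher and 13.6% lower), and the medians were 1.24 and 0.52. In both comparisons together, 8 clock genes were called with 1 sign, against 67.8% of the 13535 genes tested in both, and 6 were called with a size of 1 or more on the log2 scale in both, against 20.3%. The 3 libraries of Hyp lay wholly above or below those of LPS for all 10 genes, against 78.8% of all genes, and with M2-Exo this held for 8, against 77% of all genes.

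**Figure D2:**
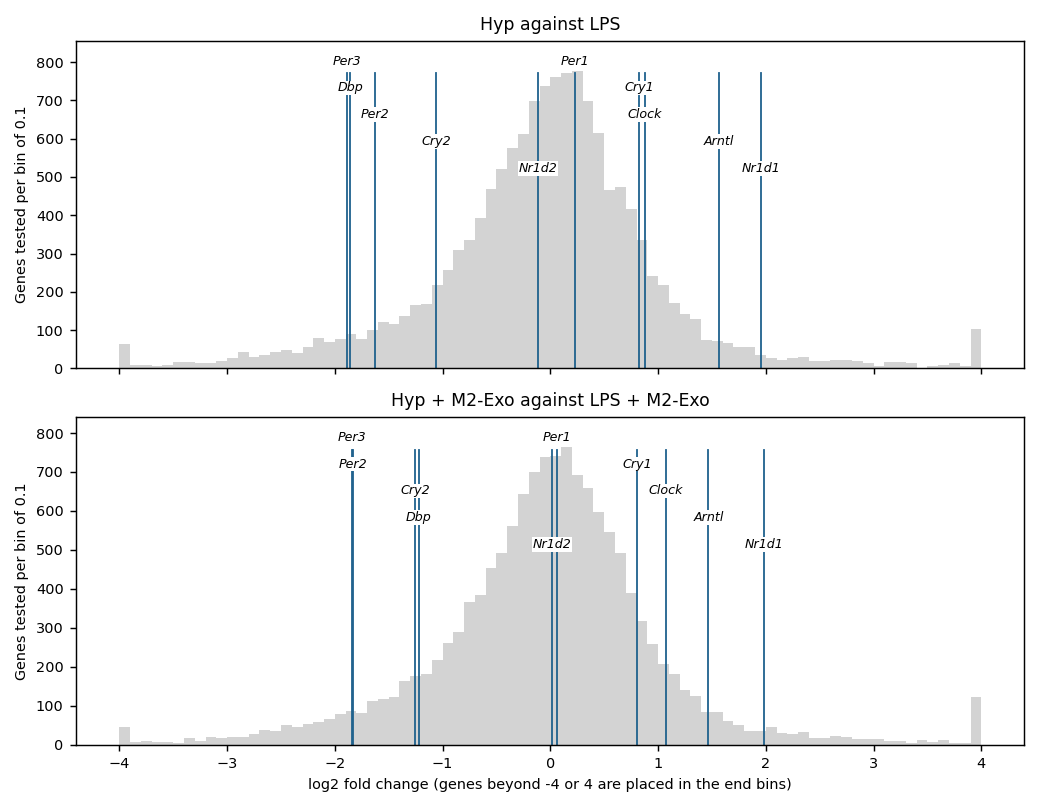
Distribution of log2 fold changes of all genes tested (grey bars, bins of 0.1 on the horizontal axis, number of genes on the vertical axis) in Hyp against LPS (top) and Hyp + M2-Exo against LPS + M2-Exo (bottom), with the 10 clock genes as blue lines. Nr1d1, at 1.96 and 1.98, and Per3, at -1.89 and -1.84, lay in the tails, and Nr1d2, at -0.11 and 0.02, lay at the centre.

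Injury and everything else that differed between the cultures cannot be told apart in these comparisons. LPS, oxygen, incubator, sequencing depth and the cell type marker levels given above differed, and the unknown hour of harvest may have differed. The direction of a difference is therefore given as hyperoxia against LPS and not as a response to either. This also holds where a level is said to have risen or fallen from LPS to Hyp.

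Arntl encodes BMAL1, the partner of CLOCK and the gene whose loss stops the rhythm (chr7:113207465-113314122, plus strand, in the coordinates of the deposited table). Its levels were 14.0, 14.6 and 15.8 CPM in LPS and 46.9, 42.5 and 42.0 CPM in Hyp. With M2-Exo they were 17.0, 15.1 and 16.9 CPM in the LPS cultures and 45.0, 45.0 and 45.6 CPM in the hyperoxia cultures. Every hyperoxia library was above every LPS library, by a margin far wider than the spread within a group. The log2 fold change was 1.56 (SE 0.07, adjusted p = 5.35e-07) in Hyp against LPS and 1.47 (SE 0.07, adjusted p = 5.92e-07) with M2-Exo.

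Clock encodes the other partner of the heterodimer, a bHLH-PAS factor (chr5:76209868-76304792, minus strand). Its levels were 71.5, 100.5 and 100.7 CPM in LPS, 97.2, 98.1 and 97.7 CPM in LPS + M2-Exo, 201, 144 and 156 CPM in Hyp and 201, 209 and 206 CPM in Hyp + M2-Exo. Replicate 1 of LPS lay below and replicate 1 of Hyp above the other libraries of their group, and the hyperoxia libraries were all above the LPS libraries. It was higher by 0.88 on the log2 scale (SE 0.16, adjusted p = 0.0013) in Hyp against LPS and by 1.07 (SE 0.03, adjusted p = 1.34e-07) with M2-Exo. Leaving out 1 library at a time gave log2 fold changes of 0.72 to 0.98 for Hyp against LPS, all past the test. Ube2n-ps1 (588 to 1160 counts per library) and Gm43658 (1 to 11) lie on the same strand within Clock. They share 0 exonic bases with it in GENCODE M21. The deposited FPKM of Clock divides by 22241 bases, against 13727 exonic bases in that annotation.

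The Period genes encode the repressors that carry the negative limb together with the cryptochromes, and they did not move as a group. Per1 (chr11:69095217-69109960, plus strand), which also responds directly to glucocorticoids and cAMP signalling, had 35.8, 36.8 and 34.6 CPM in LPS and 43.9, 42.5 and 39.0 CPM in Hyp. With M2-Exo its levels were 33.4, 33.4 and 36.2 CPM in the LPS cultures and 42.2, 33.1 and 32.3 CPM in the hyperoxia cultures. Without M2-Exo the groups did not overlap and Per1 was 1.17-fold higher in Hyp (log2 fold change 0.23, SE 0.06, adjusted p = 0.00912), while with M2-Exo the groups overlapped and the log2 fold change was 0.06 (95% confidence interval -0.19 to 0.31, adjusted p = 0.622). Replicate 1 of Hyp + M2-Exo stood above the other libraries of its group, and without it the log2 fold change with M2-Exo was -0.068.

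Per2 (chr1:91415982-91459324, minus strand), the Period gene whose loss most disturbs behavioural rhythm in mice, showed the opposite direction. Its levels were 22.6, 20.8 and 20.6 CPM in LPS, 23.8, 20.1 and 19.0 CPM in LPS + M2-Exo, 6.49, 7.24 and 6.98 CPM in Hyp and 6.09, 5.14 and 6.47 CPM in Hyp + M2-Exo. All 6 hyperoxia libraries were below all 6 LPS libraries, with no library in between. The log2 fold change was -1.63 (SE 0.08, adjusted p = 5.97e-07) without M2-Exo and -1.83 (SE 0.13, adjusted p = 4.83e-06) with it.

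Per3 (chr4:151003652-151044665, minus strand), a Period gene with a strong rhythm in peripheral tissues and the one whose promoter held a pair of D-boxes, was lower in hyperoxia by a similar size as Per2. Its levels were 55.2, 59.0 and 51.0 CPM in LPS and 15.5, 14.8 and 14.4 CPM in Hyp. With M2-Exo they were 51.5, 49.6 and 49.8 CPM in the LPS cultures and 15.4, 14.1 and 12.7 CPM in the hyperoxia cultures. The groups were far apart relative to their spread in both comparisons. The log2 fold change was -1.89 (SE 0.07, adjusted p = 1.64e-07) without M2-Exo and -1.84 (SE 0.08, adjusted p = 4.38e-07) with it. Per3 lies inside the span of Camta1 on the same strand but shares 0 exonic bases with it in GENCODE M21, and Camta1 itself was lower by a log2 fold change of -0.78 in Hyp against LPS.

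The cryptochromes are the strongest repressors of the loop, and the pair moved in opposite directions. Cry1 (chr10:85131702-85185054, minus strand) had 29.3, 30.4 and 30.5 CPM in LPS, 27.0, 28.2 and 30.8 CPM in LPS + M2-Exo, 53.1, 53.1 and 53.9 CPM in Hyp and 52.6, 49.2 and 48.9 CPM in Hyp + M2-Exo. Every hyperoxia library was higher than every LPS library, with log2 fold changes of 0.83 (SE 0.05, adjusted p = 1.47e-06) without and 0.81 (SE 0.07, adjusted p = 1.5e-05) with M2-Exo. Cry2 (chr2:92403646-92434043, minus strand) had 48.2, 46.6 and 43.1 CPM in LPS, 44.9, 43.8 and 46.9 CPM in LPS + M2-Exo, 22.07, 22.03 and 22.1 CPM in Hyp and 21.1, 17.8 and 17.9 CPM in Hyp + M2-Exo. It was lower in every hyperoxia library, with log2 fold changes of -1.06 (SE 0.06, adjusted p = 1.06e-06) and -1.26 (SE 0.08, adjusted p = 3.14e-06). On the FPKM scale the ratio of Cry1 to Cry2 was 1.39 to 1.62 in LPS and 5.51 to 5.58 in Hyp, and 1.38 to 1.51 against 5.72 to 6.33 with M2-Exo.

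REV-ERB alpha and beta are the nuclear receptors that repress Arntl, and here as well the paralogs differed. Nr1d1 (chr11:98767932-98775333, minus strand) had 10.4, 10.6 and 10.8 CPM in LPS and 43.0, 39.3 and 41.3 CPM in Hyp. With M2-Exo it had 9.43, 10.7 and 9.89 CPM in the LPS cultures and 42.7, 39.2 and 36.7 CPM in the hyperoxia cultures. Even the lowest hyperoxia library lay far above the highest LPS library, and Nr1d1 had the widest range of group means of the 10 genes, 2.03 on the log2 scale. The log2 fold change was 1.96 (SE 0.06, adjusted p = 8.96e-08) without M2-Exo and 1.98 (SE 0.09, adjusted p = 4.7e-07) with it. The 3' end of Nr1d1 overlaps Thra, the thyroid hormone receptor alpha gene, on the opposite strand over 263 exonic bases. These are 8.55% of the exonic length of Nr1d1 in GENCODE M21. The library kit is not stated to keep strand, so reads from the shared bases cannot be told apart. Thra itself moved the other way, from 81.2 CPM in LPS to 35.3 CPM in Hyp (log2 fold change -1.20, adjusted p = 9.07e-07).

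Nr1d2 (chr14:18204054-18239127, minus strand) was nearly level across the 4 groups. It had 149, 144 and 146 CPM in LPS, 135, 133 and 141 CPM in LPS + M2-Exo, 132, 131 and 143 CPM in Hyp and 144, 140.1 and 129.7 CPM in Hyp + M2-Exo. The range of its group means was 0.11 on the log2 scale, the narrowest of the 10. In Hyp against LPS the difference was -0.11 (SE 0.04, adjusted p = 0.0412), a call that was lost with DESeq2 (adjusted p = 0.0751), with library size alone (adjusted p = 0.666) and with any of 5 of the 6 libraries left out (adjusted p up to 0.153). With M2-Exo it was 0.02 (95% confidence interval -0.10 to 0.13, adjusted p = 0.795). The ratio of Nr1d1 to Nr1d2 on the FPKM scale was 0.116 to 0.124 in LPS and 0.482 to 0.543 in Hyp.

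Dbp encodes a PAR bZIP factor that is driven directly by BMAL1 and CLOCK and is the classical output of the loop (chr7:45705088-45710155, plus strand). It was the least abundant of the 10, with 122, 129 and 143 counts in LPS, 102, 63 and 97 in LPS + M2-Exo, 35, 48 and 58 in Hyp and 53, 47 and 52 in Hyp + M2-Exo. In CPM these were 6.71, 6.94 and 7.71 in LPS, 6.32, 4.08 and 5.42 in LPS + M2-Exo, 1.45, 2.11 and 2.33 in Hyp and 2.21, 2.10 and 2.49 in Hyp + M2-Exo. All hyperoxia libraries were below all LPS libraries, at low counts throughout. The log2 fold change was -1.86 (SE 0.18, adjusted p = 2.62e-05) without M2-Exo and -1.22 (SE 0.19, adjusted p = 0.000547) with it. Dbp shares 539 exonic bases with Sphk2 on the opposite strand, 18.01% of its 2993 exonic bases in GENCODE M21. The deposited FPKM of Dbp divides by 5036 bases, so the shared part of the bases that the authors counted may differ. Sphk2 had 460 to 1062 counts per library, far more than Dbp, and here too reads from the shared bases cannot be told apart. Sphk2 was slightly higher in Hyp than in LPS (log2 fold change 0.22, adjusted p = 0.0277).

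**Figure D3:**
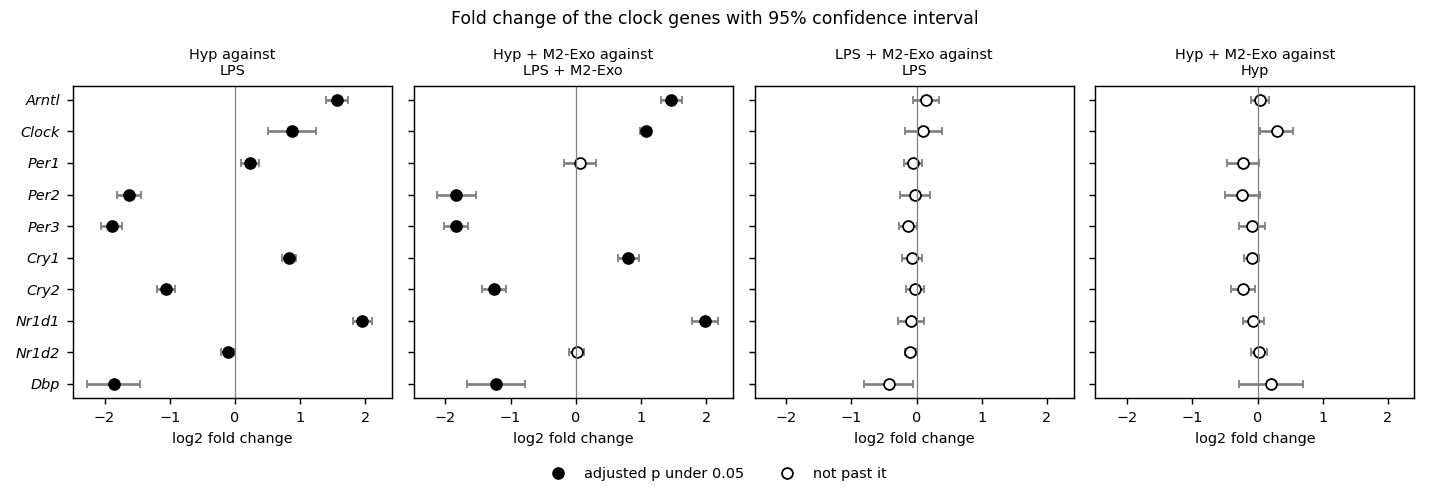
Log2 fold change (horizontal axis) with its 95% confidence interval for each clock gene in the 4 comparisons, filled where the adjusted p was under 0.05 and open where it was not. The 8 genes filled in both injury comparisons lie on 1 side of 0 in both, and the M2-Exo comparisons hold no filled point, with values from -0.43 for Dbp to 0.29 for Clock.

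A test over all 4 groups at once, with 1 estimate of spread from the 12 libraries, called 8 of the 10 genes against 77.8% of 14187 genes. Per1 (adjusted p = 0.0515) and Nr1d2 (adjusted p = 0.159) did not pass it.

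The comparison of M2-Exo with the same injury alone asks whether the exosomes altered these transcripts. In LPS + M2-Exo against LPS, 0 of 10 clock genes were called by edgeR, against a background of 0.187% of the 13353 genes tested, and 0 by DESeq2. An unadjusted p under 0.05 was reached by 2 of the 10, against 11.1% of all genes: Dbp, with a log2 fold change of -0.43 (SE 0.16, adjusted p = 0.395), and Nr1d2, with -0.10 (SE 0.04, adjusted p = 0.393). For both, the 3 libraries with M2-Exo lay below the 3 without it, which held for 17.2% of all genes in either direction. The 95% confidence intervals of the other 8 genes lay between -0.29 and 0.38, and that of Dbp reached -0.81.

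In Hyp + M2-Exo against Hyp, 0 of 10 were called by edgeR, against a background of 0.101% of the 13815 genes tested, and 0 by DESeq2. The unadjusted p was under 0.05 for 2 of the 10, against 8.48% of all genes: Clock, with a log2 fold change of 0.29 (SE 0.11, adjusted p = 0.573), and Cry2, with -0.23 (SE 0.08, adjusted p = 0.566). The groups did not overlap for 4 genes, Clock with the M2-Exo libraries higher and Per2, Cry1 and Cry2 with them lower, against 16% of all genes. Replicate 1 of Hyp decided the call for Clock: without it the log2 fold change was 0.45 and the adjusted p 0.0402. The interval of Dbp ran from -0.29 to 0.69, that of Per2 from -0.50 to 0.04 and that of Clock from 0.04 to 0.55.

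Whether the M2-Exo effect differed between the injuries was tested as an interaction over the 12 libraries, which called 0 of the 10 genes against 0.0352% of 14187 genes by edgeR and 0 by DESeq2. Dbp was the only one of the 10 with an unadjusted p under 0.05, against 9.78% of all genes. Its M2-Exo effect was higher by 0.64 on the log2 scale in hyperoxia than in LPS (SE 0.27, adjusted p = 0.481).

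**Figure D4:**
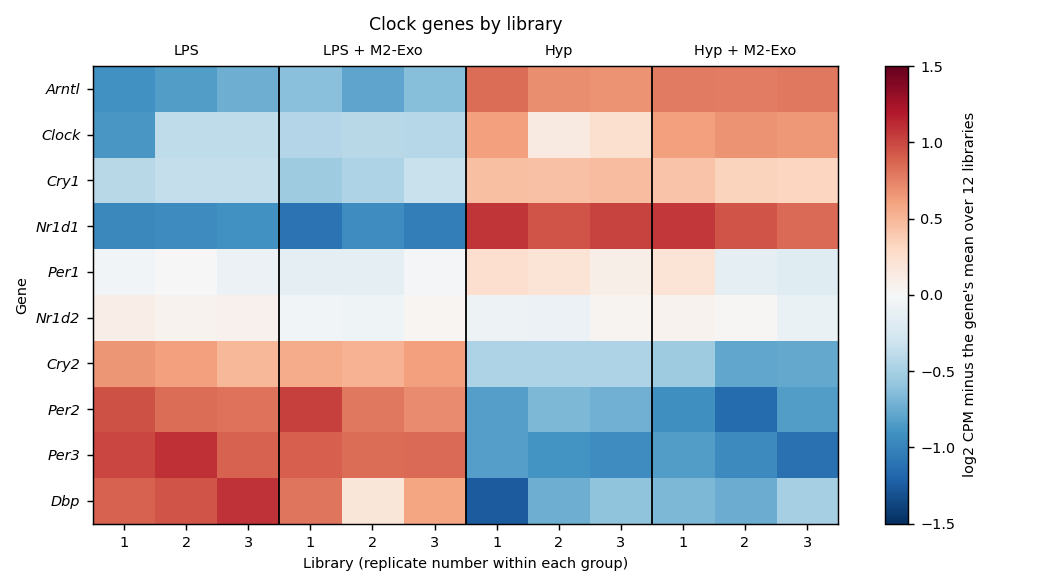
Log2 CPM of each clock gene (rows) in each library (columns), minus the mean of that gene over the 12 libraries, from blue (lower) to red (higher). For 8 genes all LPS libraries have one sign and all hyperoxia libraries the other, while Per1 and Nr1d2 stay pale and take both signs.

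Per length, Nr1d2 was the most abundant clock transcript in all 4 groups, with 24.3 ± 0.42 FPKM in LPS and 23.9 ± 1.3 in Hyp (SD, n = 3), followed by Cry1 with 9.69 ± 0.20 and 18.3 ± 0.19. In LPS the order went on with Cry2 (6.47 ± 0.39), Arntl (4.95 ± 0.29), Per3 (4.21 ± 0.33), Per1 (4.199 ± 0.15), Clock (3.97 ± 0.73), Per2 (3.50 ± 0.20), Nr1d1 (2.94 ± 0.05) and Dbp (1.37 ± 0.10). Per3, Per1 and Clock did not differ beyond their spread, nor did Clock and Per2. In Hyp it went on with Arntl (15.6 ± 0.91), Nr1d1 (12.2 ± 0.54), Clock (7.76 ± 1.4), Per1 (5.23 ± 0.30), Cry2 (3.30 ± 0.01), Per3 (1.21 ± 0.04), Per2 (1.21 ± 0.07) and Dbp (0.40 ± 0.09), where Per3 and Per2 were level. Nr1d1 thus stood in place 9 in LPS and 4 in Hyp, and Cry2 in place 3 and 7. The order depends on the length that the authors divided by, which was 2904 bases for Arntl, whereas its exons in GENCODE M21 cover 7523. With the exonic lengths of that annotation Arntl was in place 10 in LPS and 6 in Hyp, while Nr1d2 and Cry1 kept places 1 and 2 in both.

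Genes with the pattern most like a clock gene were sought for the 3 members with the widest range of group means, by the root mean square difference of log2 CPM, each gene centred on its mean over the 12 libraries, among 12465 genes. For Nr1d1 they were Errfi1 (0.098), Plaur (0.105) and Gla (0.108). For Per3 they were Aatk (0.078), Zfp704 (0.080) and Tnfrsf9 (0.081), and for Per2 Aqp1 (0.103), Nrbp2 (0.106) and Syngr1 (0.111). This likeness rests mainly on the step between the LPS and hyperoxia groups. In Hyp against LPS, 75.8% of all genes tested were called in one direction or the other. Only 24% were called with a log2 fold change of 1 or more in size.

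Of 13 partners and second-loop factors, 12 were tested, and in Hyp against LPS 7 were higher, 2 lower and 3 not called; with M2-Exo 7 were higher, 3 lower and 2 not called. The shares called, 75% and 83.3%, stood against 75.8% and 73.7% of all genes. Rorb, an activator of Arntl through the ROR element, rose from a mean of 2.58 CPM in LPS to 9.36 in Hyp (log2 fold change 1.86, adjusted p = 2.82e-06), and Rora, another, rose from 65.3 to 88.3 (0.44, adjusted p = 5.06e-05). With M2-Exo the log2 fold changes were 1.72 and 0.57. Tef, a PAR bZIP factor like Dbp, fell as Dbp did, from 99.4 to 47.2 CPM (-1.08, adjusted p = 2.3e-07), and by a log2 fold change of -1.06 with M2-Exo. Hlf, of the same family, went the other way, with a mean of 0.434 CPM in LPS and 2.84 in Hyp. With M2-Exo its means were 0.732 and 2.88 CPM. Its counts were low, 5 to 10 per library in LPS and 39 to 85 in Hyp.

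Kinases and ubiquitin ligases set the stability of PER and CRY proteins. Of 12 listed, 11 were tested, and 1 was higher, 6 lower and 4 not called in either injury comparison, 63.6% called against the backgrounds of 75.8% and 73.7%. The 4 with the smallest p were all lower in Hyp than in LPS by modest sizes. Gsk3b, a kinase that phosphorylates several clock proteins, fell from 279.8 to 167 CPM (log2 fold change -0.74, adjusted p = 1.94e-07), and Csnk1e, a casein kinase of PER, from 128 to 99.6 CPM (-0.36, adjusted p = 0.000231). Btrc, a ligase subunit that targets PER, fell by 0.53 on the log2 scale (adjusted p = 0.00017) and Csnk2a1, the catalytic alpha subunit of casein kinase 2, fell by 0.26 (adjusted p = 0.000284). With M2-Exo these differences were -0.71, -0.52, -0.48 and -0.29.

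Among clock-controlled outputs, 10 of 12 listed symbols were in the table, the other 2 being older names. In Hyp against LPS 5 were higher, 2 lower and 3 not called, and with M2-Exo 6, 2 and 2. These are 70% and 80% called, against 75.8% and 73.7% of all genes. Cdkn1a, the cell cycle inhibitor p21 and also a target of p53, rose from 25.9 to 196 CPM (log2 fold change 2.92, adjusted p = 8.02e-09). Lonrf3 rose from 24.2 to 64.6 CPM (1.42, adjusted p = 2.03e-07), and the Krüppel-like factors Klf10 and Klf9 rose by 0.72 (adjusted p = 4.58e-06) and 0.79 (adjusted p = 2.43e-05). With M2-Exo the differences were 3.07, 1.62, 0.76 and 0.70 on the log2 scale.

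**Figure D5:**
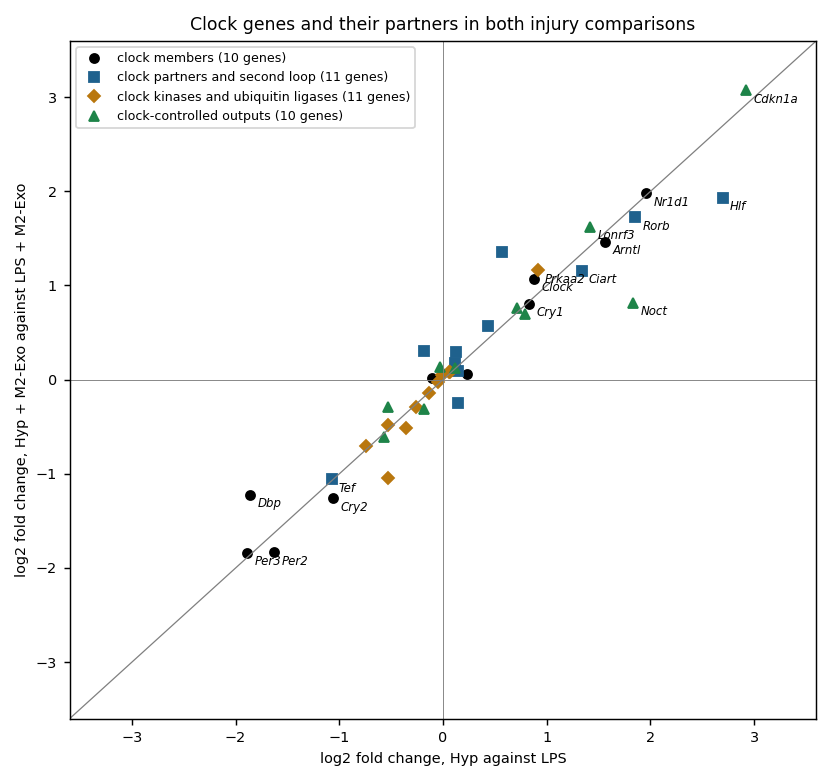
Log2 fold change of clock genes and of 3 lists of their partners in Hyp against LPS (horizontal axis) and in Hyp + M2-Exo against LPS + M2-Exo (vertical axis), with the line of equal values in grey. The 2 axes share no library, and Nr1d1 (1.96 and 1.98), Per3 (-1.89 and -1.84) and Cdkn1a (2.92 and 3.07) lie close to the line.

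Signals that reset cultured clocks act through glucocorticoid-induced and immediate early genes, so these lists were read beside the clock genes. Of 10 glucocorticoid-induced genes, which include Per1, 9 were tested, with 5 higher, 3 lower and 1 not called in Hyp against LPS, and 4, 4 and 1 with M2-Exo, 88.9% called in both against 75.8% and 73.7% of all genes. Errfi1, a feedback inhibitor of the EGF receptor, rose from 35.3 to 131 CPM (log2 fold change 1.89, adjusted p = 2.79e-08), and Klf9, named above, rose too. Nfkbia, the inhibitor of NF-kB, fell from 226 to 141 CPM (-0.68, adjusted p = 5.55e-07) and Dusp1, a phosphatase of MAP kinases, from 77.9 to 29.96 CPM (-1.38, adjusted p = 8.7e-07).

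Of 12 immediate early genes of CREB and SRF, 12 were tested in Hyp against LPS, with 9 higher, 1 lower and 2 not called, 83.3% called against 75.8%. With M2-Exo 11 were tested, with 8 higher, 1 lower and 2 not called, 81.8% called against 73.7%. Egr1 rose from 109.9 to 317 CPM (log2 fold change 1.53, adjusted p = 1.44e-07), Junb from 187 to 406 (1.121, adjusted p = 2.74e-07) and Ier2 from 79.8 to 178 (1.16, adjusted p = 4.29e-07). The gene that fell was Sik1, a kinase that limits CREB signalling to the clock, from 54.2 to 16.02 CPM (-1.76, adjusted p = 6.86e-07). In the M2-Exo comparisons 0 genes of these 5 lists were called by edgeR and 0 by DESeq2. An unadjusted p under 0.05 was reached by 5 of 48 tested in the LPS libraries, against 11.1% of all genes, and by 6 of 52 in the hyperoxia libraries, against 8.48%, the clock genes themselves not counted.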

How the data were processed

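RNA of 12 MLE-12 libraries was analysed in 4 groups taken from the sample labels. The authors filtered reads with Seqtk, mapped them with HISAT2 (version 2.0.4 in their processing notes, which also name GRCm38, StringTie 1.3.0 and edgeR without a role), and deposited a table of 34745 genes with unnormalized read counts. The counting program and its annotation are not given in the sources used here. The deposited FPKM followed from these counts to a relative 9.38e-06 in genes with over 100 counts in every library.

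Counts were tested in R 4.3.3 with edgeR 4.0.16 (filterByExpr, TMM, quasi-likelihood F test) on the 6 libraries of each comparison, and on all 12 for the interaction and the test over 4 groups, adjusted over all genes tested. TMM factors over 12 libraries lay between 0.964 and 1.036. Intervals are t intervals of that fit. The code was tested on simulated data. Positions and exons came from the table and GENCODE M21, which held 98.85% of the gene identifiers.

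The clock genes, the gene lists, the tests and the alternatives were chosen with earlier results of these data known. All 10 clock genes are named, and from each list up to 4 genes with the smallest adjusted p in any of the 4 comparisons. Of these, 1 gene is not reported here. Genes that overlap a clock gene, Hlf and markers are named outside that rule. Alternatives were RLE factors or library size alone, no filter or at least 10 counts in every library, DESeq2 1.42.0, the replicate number as a block, limma 3.58.1 on log2(FPKM + 1) or log2(FPKM + 0.1) with or without a minimum mean FPKM of 1, all 12 libraries in a fit, an unadjusted p joined to a log2 fold change of 2 or more, and each library left out in turn.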

Additional observations from a re-analysis of the deposited data

How the results depend on the processing

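Under every alternative that called genes by adjusted p, the 8 clock genes called in both injury comparisons kept their direction and stayed called where tested. Dbp was not tested by limma with a mean FPKM of at least 1 in the injury comparisons. The counts of clock genes called lay between 8 and 10 in Hyp against LPS and between 7 and 8 in Hyp + M2-Exo against LPS + M2-Exo, except with an unadjusted p under 0.05 and a log2 fold change of at least 2, where both counts were 0, since no clock gene reached that size (7.68% and 7.2% of all genes did). With each library left out in turn, the counts were 9 to 10, 8 to 8, 8 to 9 for any difference among the 4 groups, 0 to 0 for the interaction and for LPS + M2-Exo against LPS, and 0 to 1 for Hyp + M2-Exo against Hyp, where the 1 was Clock without Hyp replicate 1. Leaving out a library turned the sign only of values near 0: in LPS + M2-Exo against LPS, Clock ranged from -0.044 to 0.18, Per2 from -0.13 to 0.044 and Cry2 from -0.071 to 0.0088; in Hyp + M2-Exo against Hyp, Nr1d2 ranged from -0.0078 to 0.067; in Hyp + M2-Exo against LPS + M2-Exo, Per1 ranged from -0.068 to 0.14 and Nr1d2 from -0.013 to 0.063. The cause was not tested. Library size alone moved the median of all genes from 0.01 to 0.10 on the log2 scale in both injury comparisons, and under it Nr1d2 in Hyp against LPS was -0.02. No filter on low counts lowered the share of all genes called from 75.8% to 52.9% in Hyp against LPS.

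The replicate numbers gave no clear pairing of the libraries. Deviations of same-numbered libraries from their group means correlated across genes at between -0.02 and 0.05, and those of unlike-numbered libraries at between -0.08 and 0.04. Between Hyp and Hyp + M2-Exo, the same-numbered replicates 2 and 3 had the highest values, 0.050 and 0.041. With 3 libraries a group, these values cannot show that pairing was absent. With the replicate block, 10 and 8 clock genes were called in the injury comparisons, 0 in both M2-Exo comparisons and 8 over all 4 groups, and the genes called in all fell from 25 to 6 in LPS + M2-Exo against LPS and from 14 to 8 in Hyp + M2-Exo against Hyp. DESeq2 called 130 and 37 there.

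The harvest hour is unknown, no group was untreated, and 3 libraries a group bound the M2-Exo intervals given for each gene. Counts of Dbp, 35 to 58 per library in Hyp, limit its precision.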
